A study of Mus musculus with 2 samples.

Results

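The genes that lengthen or control poly(A) tails were compared between the second polar body (PB2) and the zygote of the mouse at the one-cell stage. They were taken by symbol from the deposited table as the terminal nucleotidyltransferases (Tent), the poly(A) polymerases (Papol) and the cytoplasmic polyadenylation element binding proteins Cpeb1 to Cpeb4. The rule found 12 of the 11262 genes of the table, which were Tent2, Tent4a, Tent4b, Tent5b, Tent5c, Tent5d, Papola, Papolg, Cpeb1, Cpeb2, Cpeb3 and Cpeb4. The set was chosen by the TPM ratio of Tent5b in these same libraries, so that ratio is given as a description and supports nothing else.

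The study has 1 library of PB2 and 1 library of zygotes, both from untreated embryos whose strain is C57BL/6 in the labels and C57BL/6N in the study's methods. By those methods, young females were superovulated with injected gonadotrophins (PMSG and HCG) and then mated with adult males. Embryos were taken from the oviduct and kept in KSOM medium until late in the one-cell stage, when acid Tyrode's solution took off the zona pellucida and pipetting in trypsin detached PB2 from the zygote. Each library was made from cells collected together, and its mRNA was amplified as full-length cDNA before sequencing. With 1 library per group there is no replicate error, tests were not possible, and a difference is one between 2 libraries. TPM is a proportion on a fixed total and is adjusted for transcript length, so less RNA per cell and fewer cells cannot be told apart, and the number of reads behind a value is unknown.

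Most mRNAs carry a poly(A) tail that is added in the nucleus when the transcript is cleaved. Oocytes store many maternal mRNAs with short tails and lengthen them in the cytoplasm during meiosis and after fertilization, which switches on their translation while transcription is low. CPEB proteins bind a U-rich element in the 3′ UTR, the cytoplasmic polyadenylation element (CPE), and bring the enzymes that lengthen or trim the tail.

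Both libraries held the oocyte markers. All 10 markers of the list (among them Zp3, Gdf9, Bmp15 and Zar1) were at 90.9 TPM or more in the zygote and 99.5 TPM or more in PB2. Their summed levels were 57742.5 TPM (zygote) and 47837.6 TPM (PB2), of which Dppa3 alone was 22561.9 and 8070.2 TPM. The median log2 ratio of PB2 over zygote for the 10 was 0.095, so the sum does not stand for the typical marker. Of the 10, 3 passed 2-fold toward PB2 and 1, Dppa3, toward the zygote, against 18.9% and 8.09% of all genes compared. Of 14 cumulus and granulosa cell markers 4 were in the table, with a summed level of 74.7 TPM for zygotes against 76.4 TPM for PB2, nearly all of it Cyp19a1 (72.2 and 70.9 TPM). Star was at 0.30 TPM for zygotes and 1.40 TPM for PB2, and Cyp11a1 was listed at 0 for zygotes and at 0.80 TPM for PB2. Of 7 sperm transcripts 2 were in the table, Prm2 with 19.8 TPM for zygotes and 22 TPM for PB2, and Akap4 with 1.00 and 0.60 TPM. The part of these markers in the results was not tested.

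Tent5b is a cytoplasmic poly(A) polymerase of the Tent5 family, which extends the tails of mRNAs without the nuclear cleavage machinery. It lies on the plus strand of GRCm38 at chr4:133480132-133487938 (ENSMUSG00000046694), and its transcript in GENCODE M21 has 2 exons and 2287 bases, of which 1284 are coding and 835 are 3′ UTR. The coding sequence of Tent5b is related to that of its paralogs but differs from them throughout. Over the alignment it was 69.0% identical to Tent5c and 62.1% identical to Tent5d, and the longest run of identical coding bases was 17 with Tent5c and 13 with Tent5d. The stretch around the longest run with Tent5c is shown, with bases identical between the genes in capitals (46 of 60). The alignment was not searched for the most similar stretch.
Tent5b, coding bases 496 to 555, chr4:133486315-133486374, plus strand: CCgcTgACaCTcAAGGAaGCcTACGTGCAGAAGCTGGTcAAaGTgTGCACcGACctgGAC
Tent5c, coding bases 391 to 450, chr3:100472989-100473048, minus strand: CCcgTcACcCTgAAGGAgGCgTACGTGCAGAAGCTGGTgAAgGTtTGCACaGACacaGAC
Outside the run of 17 bases the genes differ every few bases. Of the 2257 stretches of 31 bases in the Tent5b transcript, 0 occurred in a GENCODE transcript of another gene on either strand, and no exon of another gene overlapped it. The length of the reads is not given in the sources used here.

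The members differ in what their annotated 3′ ends hold. Polyadenylation signals are shown for Tent5b, which was highest in PB2, for its paralog Tent5c, and for Tent2, which acts on CPE-bearing mRNAs in frog oocytes. Each line is 30 bases of the end of the 3′ UTR, with the signal AATAAA in capitals.
Tent5b, chr4:133487905-133487934, plus strand: actcttcccaccAATAAAaaatgtctgcac
Tent5c, chr3:100468068-100468097, minus strand: ttcagtgtgagaAATAAAggaatatttaaa
Tent2, chr13:93146283-93146312, minus strand: gctgtcaaatggAATAAAgtttatatctgg
The last 100 bases of the 3′ UTR of the longest protein-coding transcript held AATAAA or ATTAAA on the transcript's strand in 9 of the 12 genes, against 81.9% of the 10700 genes of the table with a 3′ UTR of that length. The 3 genes without it in this window were Papola, Papolg and Tent4b. A CPE, searched as TTTTAT or TTTTAAT on the same strand, was in this window in 1 of the 12, Tent4a, against 20.3% of the 10700 genes. This count is for the longest transcript only. Of all annotated protein-coding transcripts with a 3′ UTR of that length, 2 of 3 held a CPE there for Tent4a, 1 of 3 for Tent2, 1 of 5 for Papola and 2 of 8 for Cpeb3. The element of the longest Tent4a transcript is shown with the CPE in capitals.
Tent4a, chr13:69497994-69498023, minus strand: aaattaacatatTTTTATgtaaagtttttc
Over the whole 3′ UTR these CPE letters occurred 24 times in Cpeb2, 17 times in Cpeb4, 8 times in Tent4b, 7 times in Papola, 6 times in Cpeb3, 4 times each in Cpeb1, Tent2 and Tent4a, 2 times in Papolg, once each in Tent5c and Tent5d, and 0 times in the 835 bases of Tent5b. Longer 3′ UTRs (3778 bases in Cpeb2 and 4102 in Cpeb4) give more room for such matches. A match is a description of the letters and not of binding, and other 3′ ends of these genes may be in use in these cells.

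Tent5b had 34.4 TPM for zygotes against 462.8 TPM for PB2. Its level in PB2 was 13.5 times that in the zygote, and rounding of the deposited values to 1 decimal allows any ratio from 13.4 to 13.5. For all genes 1 TPM was added to both values before the PB2 level was divided by that of the zygote, and the log2 of the quotient, the log2 ratio, was 3.71 for Tent5b. No other of the 10645 genes with at least 1 TPM in either library had a larger log2 ratio. This rank depends on the added 1 TPM, since some genes low in the zygote had a larger ratio without it. Among them were Camsap3, at 16.4 times (2.8 TPM for zygotes against 46.0 TPM for PB2), and Adad2, at 14.5 times (1.3 and 18.9 TPM). Tent5b moved from rank 2894 among the genes of the table in the zygote to rank 273 in PB2, where its level exceeded that of 97.6% of the genes. By the same log2 ratio, the closest genes over these 2 libraries, among those reaching 10 TPM in one of them, were Camsap3, a microtubule minus-end binding protein (0.083 away), Psmd3, a proteasome subunit (0.40 away), Slc52a2, a riboflavin transporter (0.48 away), Adad2 (0.60 away) and Dtx2 (0.65 away).

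Tent5c, the paralog best known for stabilizing immunoglobulin mRNAs in B cells, stood at 196.3 TPM for zygotes against 275.3 TPM for PB2, giving a log2 ratio of 0.49. It was abundant in both libraries and lay within 2-fold. Tent5d, an X-linked paralog known from the testis, was low in both, with 6.30 TPM for zygotes against 3.10 TPM for PB2 and a log2 ratio of -0.83. Its deposited level was 2.03 times higher in the zygote, although with the pseudocount of 1 it stayed under 2-fold. Of the 3 paralogs only Tent5b thus passed 2-fold, and their order of levels differed between the deposited values of the libraries. In the zygote Tent5c had 5.71 times the level of Tent5b, and in PB2 Tent5b had 1.68 times the level of Tent5c. The ratio of Tent5b to Tent5c was 9.59 times larger in PB2, which scaling a whole library cannot alter but a trend on GC content can. With the GC trend described further on removed, it was 5.51 times larger. If the whole trend is placed on PB2 the ratio there is 0.97, and if it is placed on the zygote the ratio in PB2 stays at 1.68. The trend is one between the libraries, so which of them carries it cannot be told, nor whether the order within PB2 would change. Tent5b made up 14.5% of the summed level of the Tent5 genes in the zygote and 62.4% in PB2. That sum was 237.0 TPM for zygotes against 741.2 TPM for PB2.

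**Figure D1:**
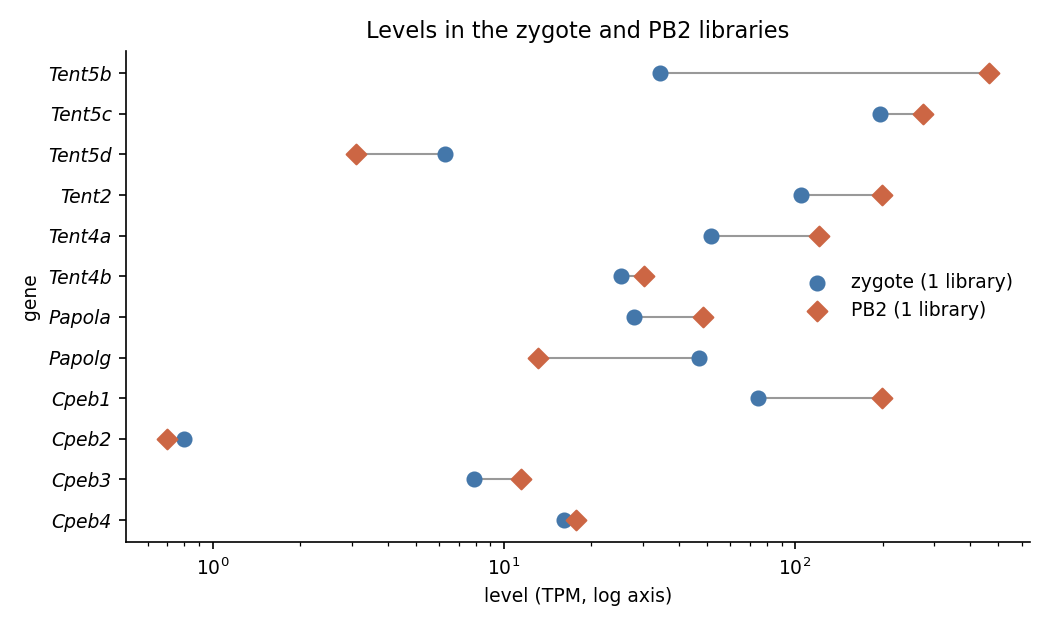
Level of each of the 12 genes in TPM (log axis) in the zygote library (circles) and the PB2 library (diamonds), 1 library each, joined by a line for each gene. Tent5b spans 34.4 to 462.8 TPM, the widest line, while Papolg, Tent5d and Cpeb2 are the genes with the PB2 point on the left.

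Tent2, also called Gld2, is the cytoplasmic poly(A) polymerase that CPEB recruits in frog oocytes. It stood at 105.2 TPM for zygotes against 198.9 TPM for PB2, giving a log2 ratio of 0.91, just under 2-fold. Its value is less certain than that of Tent5b, because 987 of the 1413 stretches of 31 bases in its coding sequence also occur in Gm15975, a processed pseudogene. How the counting treated reads that match both is not given in the sources used here.
Tent4a and Tent4b add tails of mixed bases that slow deadenylation, and Tent4b also tags nuclear RNAs for the exosome. Tent4a stood at 51.5 TPM for zygotes against 121.3 TPM for PB2, giving a log2 ratio of 1.22. Tent4b had 25.3 and 30.2 TPM, a log2 ratio of 0.25. The pair was uneven in both libraries, with Tent4a at 2.04 times the level of Tent4b in the zygote and 4.02 times in PB2. That ratio was 1.97 times larger in PB2 as deposited and 1.13 times with the GC trend removed. The Tent4a transcript overlaps an exon of Nsun2 on the opposite strand by 165 bases. Nsun2 had 8.80 TPM for zygotes against 13.0 TPM for PB2, far less than Tent4a, and the sources used here do not state whether counting used strand.

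Papola is the main nuclear poly(A) polymerase that acts with the cleavage complex, and Papolg is a second nuclear enzyme of the same fold. They lay on opposite sides. Papola stood at 28 TPM for zygotes against 48.3 TPM for PB2, giving a log2 ratio of 0.77. Papolg stood at 47.0 TPM for zygotes against 13.1 TPM for PB2, giving a log2 ratio of -1.77, and it was the only member at least 2-fold higher in the zygote. Only 1.15% of the genes compared had a lower log2 ratio than Papolg. The ratio of Papola to Papolg was 0.60 in the zygote and 3.69 in PB2, which is 6.19 times larger, and 5.47 times with the GC trend removed. The 2 genes together summed to 75.0 TPM for zygotes against 61.4 TPM for PB2, so the pair differed less in its sum than in its make-up. The longest run of identical coding bases between them was 20. Papola shares 185 stretches of 31 bases with transcripts of other genes, 111 of them with the processed pseudogene Gm14245. Papolg shares 64 such stretches, none of them coding, with Gm12061, an antisense gene that overlaps its exons by 91 bases.

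**Figure D2:**
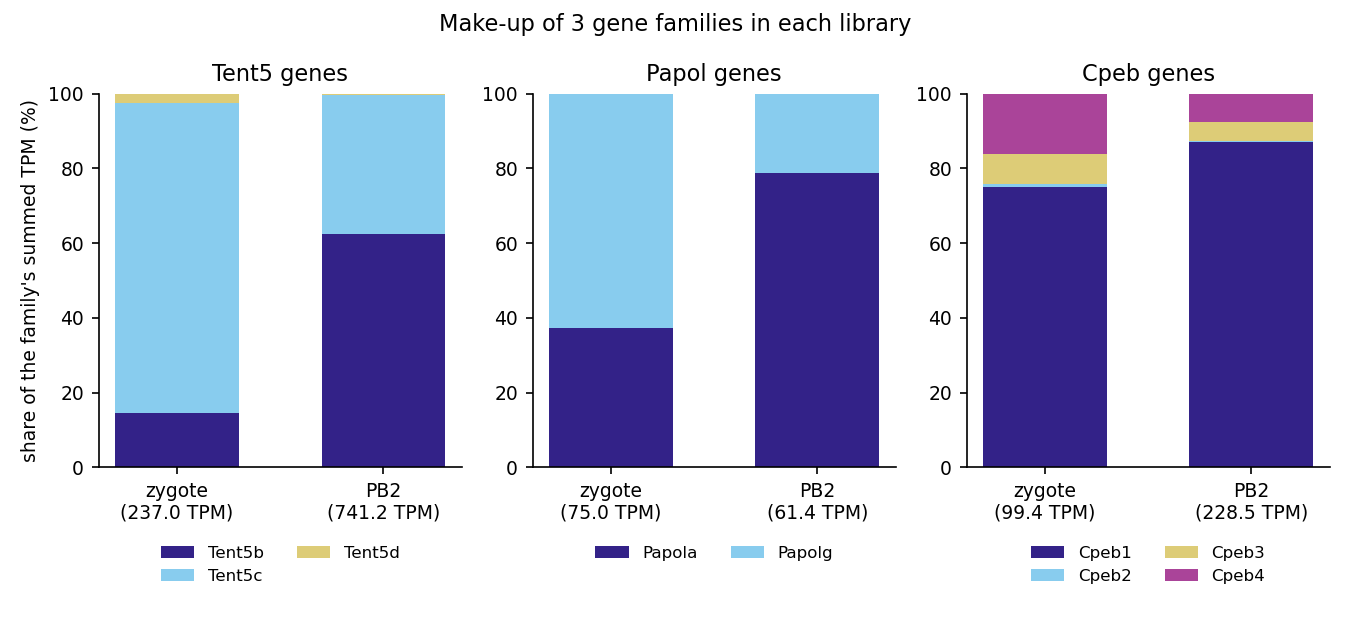
Share (%) of each gene in the summed TPM of its family, for the Tent5, Papol and Cpeb genes, in the zygote and PB2 libraries, with the family's sum under each bar. Tent5b goes from 14.5% to 62.4% of the Tent5 sum and Papola from 37.3% to 78.7% of the Papol sum, while Cpeb1 holds most of the Cpeb sum in both.

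Cpeb1 is the founding CPE binding protein, which holds maternal mRNAs silent and then activates them when meiosis resumes. It stood at 74.6 TPM for zygotes against 198.6 TPM for PB2, giving a log2 ratio of 1.40, and was the most abundant Cpeb gene in both libraries. It made up 75.1% of the summed level of the Cpeb genes in the zygote and 86.9% in PB2. Cpeb2, Cpeb3 and Cpeb4 form a branch of the family with closely related RNA binding domains. Cpeb3 stood at 7.90 TPM for zygotes against 11.5 TPM for PB2, giving a log2 ratio of 0.49. Cpeb4, which takes over from Cpeb1 late in frog meiosis, had 16.1 and 17.7 TPM, a log2 ratio of 0.13. Cpeb2 had 0.80 and 0.70 TPM and, under 1 TPM in both, was the 1 member left out of the comparison. Cpeb1 was the only Cpeb gene past 2-fold, and its ratio to Cpeb4 was 4.63 in the zygote and 11.2 in PB2. That ratio was 2.42 times larger in PB2 as deposited and 1.71 times with the GC trend removed.

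Of the 12 members, 9 had a higher level in PB2 and 3 in the zygote, and 59.2% of all genes compared were also higher in PB2. Of the 11 compared members, Tent5b, Cpeb1 and Tent4a passed 2-fold toward PB2, where 18.9% of the 10645 genes did so, and Papolg passed it toward the zygote, where 8.09% did. The other 7 lay within 2-fold, with Tent2 at 0.91 and Tent5d at -0.83 nearest to it from inside, and Tent4a at 1.22 nearest from outside. The median log2 ratio of the 11 was 0.49, against 0.21 over all genes compared. Because the median of all genes is above 0, PB2 stands higher than the zygote by 0.21 on the log2 scale for a typical gene, and relative to that the log2 ratio was 3.50 for Tent5b, 1.19 for Cpeb1, 1.01 for Tent4a and -1.98 for Papolg. The summed level of the 12 genes was 593.4 TPM for zygotes against 1381.5 TPM for PB2, and without Tent5b it was 559.0 and 918.7 TPM. Tent5b alone was 5.80% of the sum in the zygote and 33.5% in PB2.

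The log2 ratio over all genes moved with the GC content of the transcript, and the members shared this. Their transcripts had GC contents from 33.4% (Tent5d) to 60.2% (Tent5b), against a median of 49.1% over all genes compared, and Tent5b exceeded 96.7% of genes in GC content. Across the 11 members GC content and the log2 ratio had a Spearman's rho of 0.76 (n = 11 genes of the same 2 libraries), against 0.44 over all genes, and neither is a test. A loess trend on GC content was then subtracted, which also sets the typical gene to 0. The log2 ratio of Tent5b was then 2.75, and 4 genes stood higher, all of them under 10 TPM in both libraries. Cpeb1 was at 1.27, Tent2 at 1.23 and Papolg at -1.42, so that again 3 members passed 2-fold toward PB2 and 1 toward the zygote. The genes were not the same, since Tent2 passed 2-fold and Tent4a, whose transcript has 56.4% GC, was at 0.45. Tent5d went to -0.21. The part of GC content in the difference between the libraries was not tested.

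**Figure D3:**
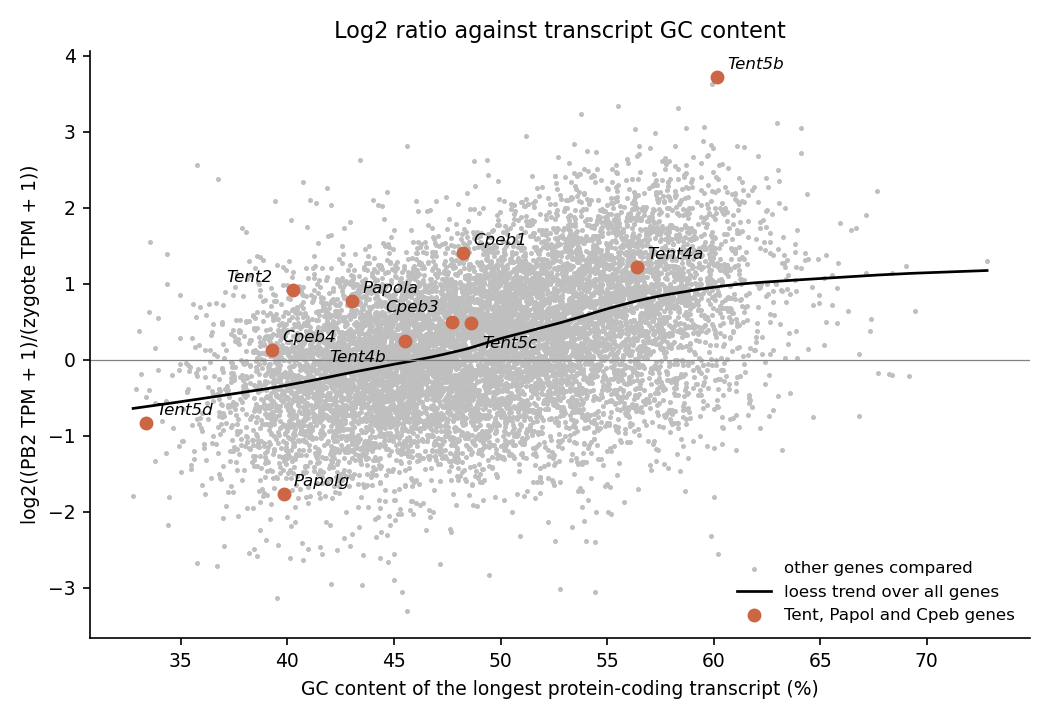
Log2 ratio of PB2 over zygote against the GC content (%) of the longest protein-coding transcript, for all genes compared (grey) and for 11 Tent, Papol and Cpeb genes (labelled), with the loess trend over all genes as a line. Tent5b (60.2% GC) stands 2.75 above the trend and Papolg (39.8% GC) 1.42 below it.

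The wider pathway was described through lists of other genes. Over all 10645 genes compared, 18.9% passed 2-fold toward PB2 and 8.09% toward the zygote, and the median log2 ratio was 0.21. The counts and medians of the lists are to be read beside these values, and none was tested against them. Nucleotidyltransferases outside the rule numbered 7 on the list and 4 compared, with a median log2 ratio of -0.15, and 1 was at least 2-fold higher in each library. Tut1, the terminal uridylyltransferase of U6 RNA that also adds adenosines, stood at 12.1 TPM for zygotes against 70.8 TPM for PB2, giving a log2 ratio of 2.45. Trnt1, which adds CCA to tRNAs, had 184.6 and 77.8 TPM, a log2 ratio of -1.24, and Mtpap, the mitochondrial poly(A) polymerase, had 209.4 and 136.5 TPM, a log2 ratio of -0.61. Both were higher in the zygote, so this group was split in direction as the Papol pair was. Tut7, which uridylates mRNAs with short tails, was near even at 31.7 and 39.5 TPM. With the GC trend removed Tut1 was at 1.75, and Trnt1, at -0.92, was inside 2-fold.
Of 20 listed cleavage and polyadenylation factors 17 were compared, with a median log2 ratio of 0.39, and 3 passed 2-fold toward PB2 and 1 toward the zygote. Fip1l1, which links the poly(A) polymerase to the cleavage complex, stood at 22.3 TPM for zygotes against 63.0 TPM for PB2, giving a log2 ratio of 1.46. Sympk, the scaffold of the nuclear and cytoplasmic polyadenylation complexes, had 0.60 and 6.70 TPM, a log2 ratio of 2.27, and Cpsf4 had 2.20 and 5.50 TPM, a log2 ratio of 1.02. Nudt21, the subunit that binds upstream of the signal, had 3.7 and 1.3 TPM, a log2 ratio of -1.03. With the GC trend removed Fip1l1 was at 1.59 and Sympk at 1.37, while Cpsf4 at 0.33 and Nudt21 at -0.83 were inside 2-fold. Rbbp6 at 1.09 and Ints11 at -1.21, inside 2-fold as deposited, were then past it. Apart from Fip1l1 these genes were low in the zygote, where rounding and counting error weigh most.
Of 11 poly(A) binding proteins and their partners 8 were compared, with a median log2 ratio of 0.13, and 2 passed 2-fold toward PB2. Pabpc1l, the poly(A) binding protein of oocytes, stood at 37.9 TPM for zygotes against 79.9 TPM for PB2, giving a log2 ratio of 1.06, and Pabpc1, that of somatic cells, had 0.5 and 3 TPM, a log2 ratio of 1.42. None was at least 2-fold higher in the zygote, and the lowest was Paip2, at -0.87. With the GC trend removed Pabpc1 was at 1.32, Pabpc1l at 0.40 and Pabpn1l, on the same list, at -1.14. In both libraries the oocyte form was far above the somatic form.
Of 16 partners and regulators of these enzymes 13 were compared, with a median log2 ratio of 0.41. Past 2-fold toward PB2 were, among others, the kinase Mapk3 (155.4 TPM for zygotes against 513.3 TPM for PB2) and Ybx2, which packages stored mRNAs (23.7 and 60.4 TPM). With the GC trend removed Mapk3 was at 0.87 and Ybx2 at 0.27, both inside 2-fold, and the median of the list was 0.13. None of the 13 was at least 2-fold higher in the zygote. Aurka, named as a kinase of CPEB in frog oocytes, had 266.7 and 235.0 TPM, a log2 ratio of -0.18.
Among mRNAs known to be controlled through CPEs, all 11 of the list were compared, with a median log2 ratio of -0.28, and 2 passed 2-fold toward PB2 and 1 toward the zygote. Mos, the kinase that holds the egg in metaphase, stood at 62.7 TPM for zygotes against 310.1 TPM for PB2, giving a log2 ratio of 2.29, and Dcp1a, of the decapping complex, had 114.9 and 292.2 TPM, a log2 ratio of 1.34. Tpx2, a spindle assembly factor, had 268.8 and 126.6 TPM, a log2 ratio of -1.08. Ccnb1, which encodes cyclin B1, had 1490.0 and 965.9 TPM, and Btg4, the adaptor that brings deadenylase to maternal mRNAs, had 16642.4 and 9470.9 TPM, with log2 ratios of -0.62 and -0.81. The list thus held genes higher in either library. With the GC trend removed Mos was at 1.75, Dcp1a at 1.20 and Tpx2 at -1.18, all still past 2-fold.

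**Figure D4:**
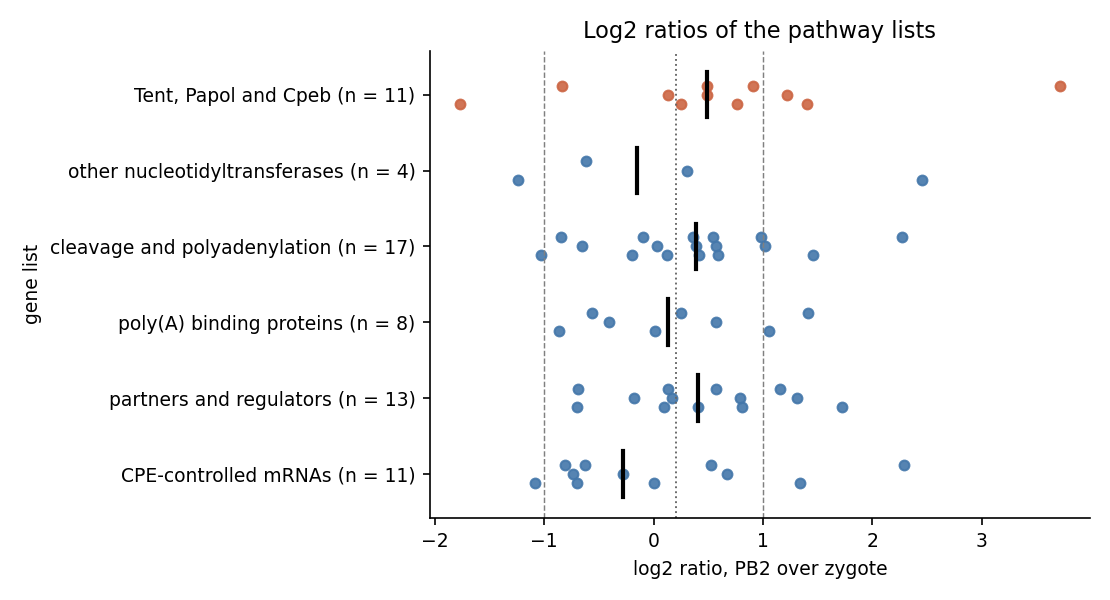
Log2 ratio of PB2 over zygote for the genes compared in each pathway list, 1 point per gene, with the list's median as a black bar, the median over all genes (0.21) as a dotted line and 2-fold as dashed lines. Tent5b, the rightmost point at 3.71, lies apart from every other gene shown, and the lists overlap widely.

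Tent5b kept the highest and Papolg the lowest log2 ratio of the 11 with the GC trend and with the length trend removed. With the length trend removed Cpeb4 and Tent4b went below 0, to -0.21 and -0.099.

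**Figure D5:**
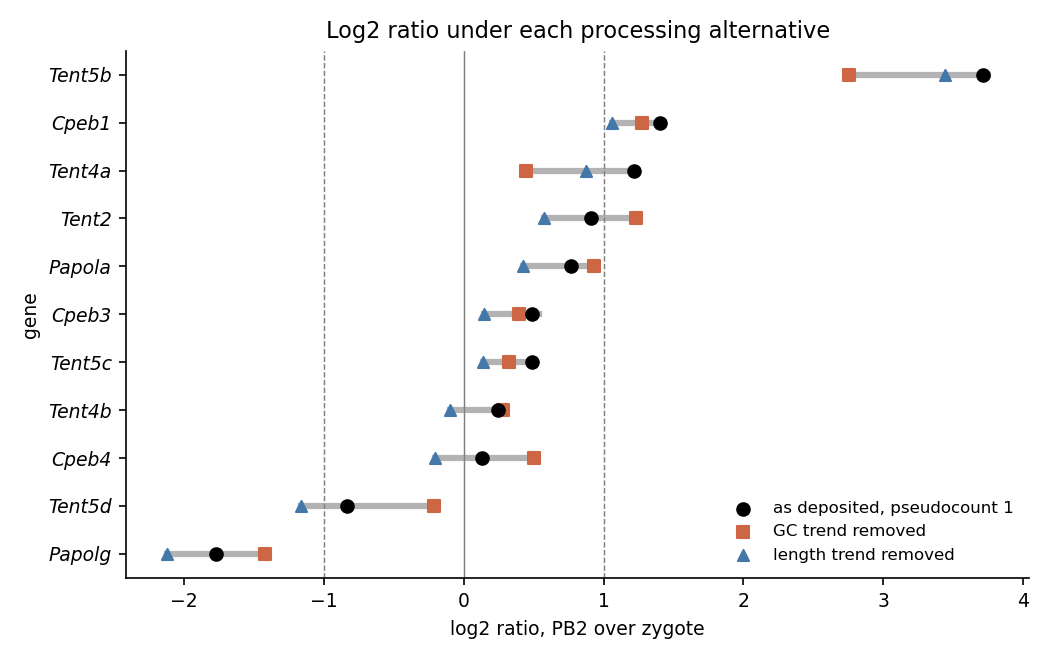
Log2 ratio of PB2 over zygote for 11 genes as reported (black), with the GC trend removed (squares) and with the length trend removed (triangles), and the range over 9 alternatives as a grey bar, with 2-fold as dashed lines. Tent5b stays between 2.75 and 3.75 and Papolg between -2.12 and -1.42, while Tent4b and Cpeb4 cross 0.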

How the data were processed

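RNA-seq of PB2 and zygotes was analysed, with 1 library each. By their supplementary methods and processing notes, the authors aligned reads with HISAT2 2.0.4, counted them per gene with HTSeq 0.6.1p1 and used DESeq2 1.18.1 for their comparison. The notes name both a rabbit assembly, OryCun2.0, and GRCm38, and the identifiers are those of mouse Ensembl genes. What the authors deposited are TPM values to 1 decimal, and how TPM was made is not given in the sources used here. The depth is unknown, so no interval was computed. The genes of the table sum to 89.8% of a full library in PB2 and 92.7% in the zygote, and 0 value columns were left over. The rule found no row for Tent5a or Papolb, so the sums and shares of the Tent5 and Papol genes leave them out.

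The log2 ratio used a pseudocount of 1 over genes with at least 1 TPM in either library, and a list was described by its counts past 2-fold and its median. Transcript sequences and positions are those of the longest protein-coding transcript in GENCODE M21 (GRCm38). Coding sequences were aligned globally with Biopython 1.88, and trends came from loess (span 0.3, statsmodels 0.14.6). All 12 members, and list genes past 2-fold or at the ends of a list, are named, except for an item not reported here, as are the 5 genes closest to Tent5b. Aurka, Cnot7 and other list genes inside 2-fold were picked with their values in view, as were the ratios between paralogs, the family shares, the 3′ end motifs and the comparison of coding sequences. The members and lists were chosen with earlier results of these data known. Dazl is on 2 lists, and a listed name that is no mouse symbol, Gld1, was dropped once the table was seen. The log2 ratio, the 2-fold cut and the trend removal were tested on simulated data first, and the sequence comparisons were not. Python 3.11.15, numpy 2.4.6, pandas 2.3.3 and matplotlib 3.10.9 were used.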

Additional observations from a re-analysis of the deposited data

How the results depend on the processing

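No paired analysis was possible because a single library stands for each condition. The depth is unknown, so counting error cannot be given, and it weighs most on Cpeb2, Tent5d and other genes of a few TPM. Over 9 alternatives the log2 ratio of Tent5b ranged from 2.75 to 3.75 and that of Papolg from -2.12 to -1.42, and the median of the members from 0.15 to 0.54. No result of at least 2-fold changed direction. With the length trend removed Cpeb4 was at -0.21 and Tent4b at -0.099, and with the ratios centred Cpeb4 was at -0.080. Results moved by more than 0.5 on the log2 scale, or counts by more than 1.5 times, in 15 cases against 133 that did not, and 3 of the 15 were single log2 ratios with the GC trend removed: Tent5b at 2.75, Tent4a at 0.45 and Tent5d at -0.21. Another 5 were ratios between paralogs with the GC trend removed, an alternative chosen after seeing the data. Between Tent5b and Tent5c the fold was 5.51 in place of 9.59.

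The number of members at least 2-fold higher in PB2, 3 as reported, was 5 at a threshold of 1.5-fold and 1 at 4-fold, which follows from the thresholds, and 2 with the length trend removed. The number higher in the zygote, 1 as reported, was 2 at 1.5-fold and 0 at 4-fold. It was also 2 with a pseudocount of 0.01, with the ratios centred on their median and with the length trend removed, in each case with Tent5d added to Papolg. With the ratios centred, 51.7% of the genes past 2-fold were higher in PB2 against 70.0% as reported, 45.3% with the GC trend removed and 50.8% with the length trend removed. Past 4-fold lay 2.48% of all genes toward PB2 and 0.70% toward the zygote.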

Other observations

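Over all genes compared with a 3′ UTR of at least 100 bases, 2033 held TTTTAT or TTTTAAT in the last 100 bases and 8068 did not. The median log2 ratio of PB2 over zygote was 0.25 with a CPE and 0.23 without, and with the GC trend removed it was 0.13 and 0.0073. Past 2-fold toward PB2 were 18.9% of the genes with a CPE and 19.5% of those without, and toward the zygote 6.35% and 7.97%. Of the 11 mRNAs known to be controlled through CPEs, 5 held these letters in this window of their longest transcript, with Cnot7, Dcp1a and Orc6 among them. Ccnb1, Mos, Dazl, Tpx2, Cnot6l and Dcp2 held none there. The search thus missed most of this list, and a window without a match does not mean an mRNA without CPE control. In Cnot7, a deadenylase, the element lies right before the polyadenylation signal (both in capitals) at chr8:40493036-40493065 on the minus strand.
Cnot7: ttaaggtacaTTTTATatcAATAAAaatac
Cnot7 stood at 329.5 TPM for zygotes against 331.3 TPM for PB2, giving a log2 ratio of 0.0078. This window and these motifs were chosen after the values were seen, no test was run, and the annotated 3′ end need not be the one used in these cells.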
